A study of Homo sapiens with 13 samples.

Results

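Aldehyde dehydrogenases are NAD(P)-dependent enzymes, most of which turn aldehydes into carboxylic acids. The 10 genes described here are ALDH1A1, ALDH1A3, ALDH1B1, ALDH2, ALDH3A1, ALDH3A2, ALDH3B1, ALDH4A1, ALDH9A1 and ALDH18A1. They were taken as all probe sets that name 1 of these genes in the platform annotation, which gave 15 of the 22277 probe sets and 10 of the 11963 genes measured. ALDH1A1 was selected on its higher signal in the bone-metastatic lines, so its values against control are given as a description with no test. The other 9 genes accompany it as members of the same family.

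The cells came from human non-small cell lung carcinoma, and the 13 oligonucleotide arrays fall into 5 groups. Control cells without a luciferase reporter and control cells with it filled 2 arrays each, and the lines M1, M4 and M5 filled 3 arrays each. Luciferase is an enzyme whose light lets injected cells be followed in a living animal. The labels describe the lines as subpopulations recovered from bone after control cells were injected into the heart of mice, and tested again by the same route. They also state that each array pooled 3 groups of cells. The labels call the arrays of a group biological replicates without naming separate cultures, so p-values measure only the spread between these arrays. The labels do not say which kind of control cell the lines were derived from. The series' title speaks of genes behind metastatic growth in bone. M1, M4, M5 and the average of these 3 lines were therefore set against the mean of both kinds of control.

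The control probe sets of the arrays, most of which detect spiked-in RNA and the rest human RNAs such as actin, GAPDH and ribosomal RNA, divided the 13 arrays into 4 sets, and the labels record nothing that matches these sets. Set 1 held replicate 1 of each kind of control and M1 replicate 2. Set 2 held replicate 2 of each kind of control and replicate 1 of each line. Set 3 held M4 replicates 2 and 3 and M1 replicate 3, and set 4 held only M5 replicates 2 and 3. Over all probe sets, 13 of 13 arrays were nearest to an array of their own set and 4 to an array of their own group. Differences were therefore fitted in 2 ways, without and with the array set as a block. Some are given from the first fit only, and a difference given without mention of the block is from that fit. With the block, the values of M5 rest on M5 replicate 1, because set 4 holds no other group. Array medians lay between 5.62 and 5.69 (log2 signal), no arrays were copies of each other, and the number of arrays limits the precision.

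Of 7 epithelial markers measured for the labelled carcinoma, the keratins KRT7, KRT8, KRT18 and KRT19 were above the array median on every array, KRT5 was above it on none, and the adhesion genes EPCAM and CDH1 were below the lower quartile on all 13. Of 5 lung lineage markers measured only SFTPC was above the array median on every array, and of 8 fibroblast markers only COL1A1 and COL3A1 were. No measured marker of osteoblasts, haematopoietic cells or endothelial cells was above the median on every array. The mean signal of the 5 haematopoietic markers was 4.14 to 4.33 on control arrays and 4.18 to 4.60 on line arrays, and that of the 8 fibroblast markers was 5.14 to 5.34 and 5.19 to 5.47. Their part in the results was not tested.

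The enzymes ALDH1A1, ALDH1A3 and ALDH1B1 can oxidise retinal to retinoic acid, the ligand of the nuclear receptors RAR and RXR. ALDH1A1 is cytosolic, and its activity is widely used to sort stem-like cells from lung and other carcinomas. The remaining members except ALDH18A1 act on other aldehydes. ALDH2 removes acetaldehyde in mitochondria, the class 3 enzymes handle fatty and aromatic aldehydes, ALDH4A1 and ALDH18A1 lie on opposite sides of proline metabolism, and ALDH9A1 makes the precursor of carnitine.

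The promoter table of RefSeq (GRCh38.p14) held 8 of the 10 genes, ALDH2 and ALDH3A1 not among them. ALDH1A1 and ALDH1A3 are printed because both enzymes oxidise retinal, while the first was the most variable member and the second stayed below the array median. Each sequence runs 5′ to 3′ along the gene's strand from 250 bases before the gene's start to 50 bases after it. ALDH1A1 lies on the minus strand at chr9:72953004-72953303, and ALDH1A3 on the plus strand at chr15:100879581-100879880. Capitals mark matches, on either strand, to the CCAAT box, the TATAAA box, the GC box with its letters GGGCGG, the aryl hydrocarbon receptor core GCGTG, and TGANNNNGC as the antioxidant response core. Adjoining or overlapping matches run together.
ALDH1A1: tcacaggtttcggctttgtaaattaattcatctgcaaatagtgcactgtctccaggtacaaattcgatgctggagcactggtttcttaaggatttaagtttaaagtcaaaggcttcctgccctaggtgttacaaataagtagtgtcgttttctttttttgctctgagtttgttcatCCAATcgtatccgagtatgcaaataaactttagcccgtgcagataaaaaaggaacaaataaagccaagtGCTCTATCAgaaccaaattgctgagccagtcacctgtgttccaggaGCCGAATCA
ALDH1A3: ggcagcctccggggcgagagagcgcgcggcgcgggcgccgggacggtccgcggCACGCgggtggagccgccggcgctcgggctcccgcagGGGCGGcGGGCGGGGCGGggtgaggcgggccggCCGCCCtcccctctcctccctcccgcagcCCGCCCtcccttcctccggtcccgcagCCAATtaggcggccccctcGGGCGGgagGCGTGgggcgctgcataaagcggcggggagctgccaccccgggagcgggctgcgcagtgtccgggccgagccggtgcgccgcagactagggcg

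The ALDH1A1 window held 40.3% G and C, against a median of 58.3% over the table's 27305 promoters, and the ALDH1A3 window held 81.7%. Both held a CCAAT match, whose first base lay at position -74 in ALDH1A1 and -71 in ALDH1A3. The CCAAT letters occur in 35.7% of all promoters in the table. ALDH1A1 had no GGGCGG match, whereas ALDH1A3 had 6, and 44.6% of promoters have at least 1. TGANNNNGC matched the ALDH1A1 window at 2 positions on the opposite strand, -5 and 42, and is found in 42.1% of promoters. GCGTG matched ALDH1A3 at 2 positions and is found in 36.3% of promoters. TATAAA, found in 12% of promoters, matched neither window. These are matches of letters, and no binding was measured.

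ALDH1A1 differed more between arrays than nearly any other gene. Its signal spanned 4.44 log2 units, which ranked 3 among 11963 genes, where the median gene spanned 0.65. The order of the group means was luciferase control, M1, control without luciferase, M5 and M4. On the 2 arrays of control cells with luciferase ALDH1A1 read 7.23 and 7.29 (mean 7.26 ± 0.04, SD, n = 2). Control cells without luciferase read 9.82 and 9.42 (9.62 ± 0.28, SD, n = 2). The 2 kinds of control did not overlap, and they lay further apart than M1 lay from the control without luciferase.

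M1 replicates 1 to 3 read 8.76, 8.86 and 10.33 (9.32 ± 0.88, SD, n = 3), values that lie on both sides of the control without luciferase. M4 read 10.07, 11.67 and 11.57 (11.11 ± 0.90, SD, n = 3), above every control array. M5 read 11.07, 11.15 and 10.87 (11.03 ± 0.14, SD, n = 3), also above every control array and with the least spread of the lines. In all, 7 of 9 line arrays were above all 4 controls, and the exceptions were M1 replicates 1 and 2. Such counts, here and for ALDH3A1, ALDH4A1 and ALDH5A1 below, are descriptions. None of these genes had all 9 line arrays above all control arrays, as 0.252% of all probe sets did. The shares that reach at least these lower counts are not given and cannot be smaller. Of the ALDH1A1 sum of squares, the groups accounted for 87.7% and the array sets for 52.4%, against medians of 33.2% and 57.3% over all 22215 probe sets tested. RNA of whole cultures cannot tell more cells that express a gene from more RNA per cell.

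**Figure D1:**
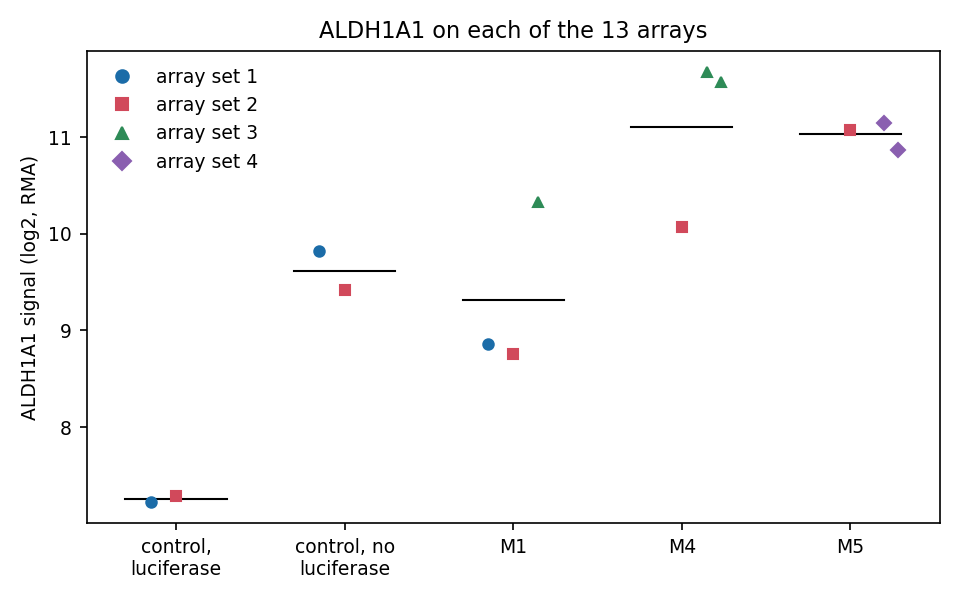
ALDH1A1 signal (log2, RMA) on each array, by group, with the group mean as a line and the array set as the symbol. The luciferase controls sit at 7.23 and 7.29, the controls without luciferase at 9.42 and 9.82, and all M4 and M5 arrays at 10.07 or above.

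Control cells with and without luciferase were compared first. ALDH1A1 was selected on another contrast, the rise in the lines, but that contrast used the same control arrays. The p-values of ALDH1A1 here are therefore not free of the selection. ALDH1A1 was lower in the cells with luciferase by 5.13-fold (log2 -2.36 ± 0.52, SE), the largest absolute difference of all 22215 probe sets. Without the block, limma called 0 probe sets (0% of those tested, with 279 at an unadjusted p under 0.05), so 0 of 15 probe sets of the group were called; ALDH1A1 had an unadjusted p of 0.000684 and an adjusted p of 1. With the array-set block, 0.018% of probe sets were called, ALDH1A1 alone among the 15, and it had the smallest p of all (log2 -2.36 ± 0.13, SE; adjusted p = 1.75e-05). Each array set that holds both kinds of control gave the same direction, -2.58 in set 1 and -2.13 in set 2.

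Because the 2 controls stood so far apart, the distance of a line from control depended on which control was used. Against the mean of both, ALDH1A1 was higher by 2.04 ± 0.32 in the mean of the lines, 0.88 ± 0.40 in M1, 2.67 ± 0.40 in M4 and 2.59 ± 0.40 in M5 (log2 difference ± SE). With the array-set block these differences were 1.59 ± 0.10, 0.38 ± 0.11, 1.69 ± 0.13 and 2.70 ± 0.15. Against the control with luciferase alone they were 3.22, 2.06, 3.85 and 3.77 without the block, so every line was higher. Against the control without luciferase they were 0.87, -0.30, 1.49 and 1.41, so the mean of M1 was lower while M4 and M5 remained higher. These comparisons share control arrays.

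**Figure D2:**
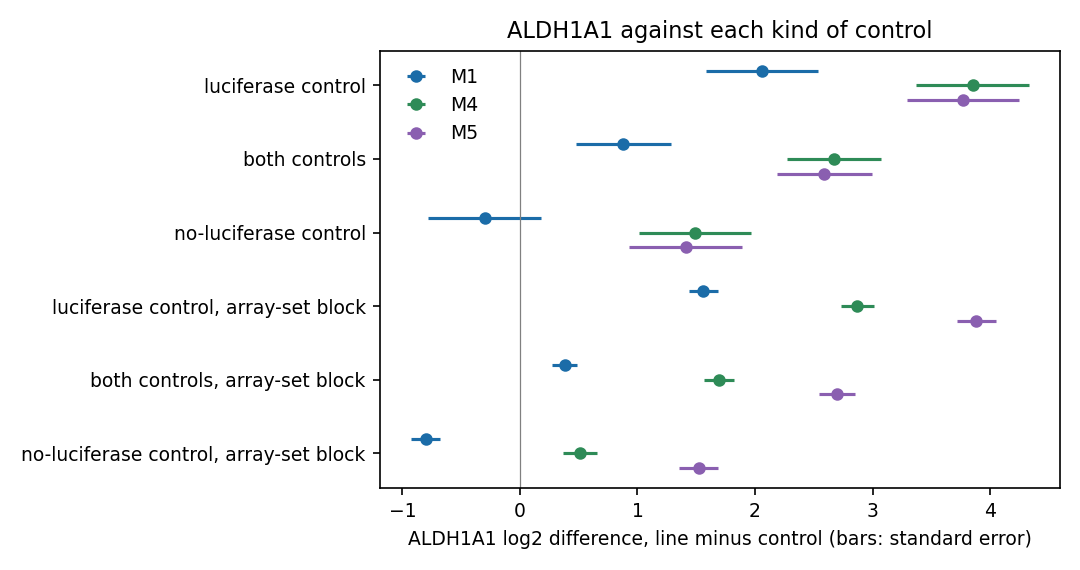
ALDH1A1 log2 difference of M1, M4 and M5 from the luciferase control, both controls or the control without luciferase, without and with the array-set block; points are estimates and bars standard errors. M1 moves from 2.06 against the luciferase control to -0.30 against the control without luciferase, while M4 and M5 stay to the right of 0.

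Within single array sets the order of the groups was the same wherever it could be read. In set 1, M1 differed by 1.63 from the control with luciferase and by -0.95 from the control without it. In set 2, M1 differed by 1.47 and -0.66 from these controls. The M4 array of set 2 was 2.78 above the luciferase control and 0.65 above the control without luciferase, and the M5 array 3.78 and 1.65. ALDH1A1 was thus lowest with luciferase, next in M1 and then in the control without luciferase in both sets, and in set 2 M4 and M5 followed in that order. Each of these values compares single arrays.

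The lines also differed from each other in ALDH1A1. These comparisons use the line arrays on which ALDH1A1 was selected. Its p-values between lines, here and in the next paragraph, are therefore not free of the selection either. M4 exceeded M1 by 1.79 ± 0.43 (SE) without the block, where limma called 0.0135% of probe sets and none of the 15 (adjusted p = 1 for ALDH1A1). With the block 0.0855% were called, ALDH1A1 among them (1.31 ± 0.11, SE, 2.48-fold; adjusted p = 0.00143). The value was 1.31 in array set 2 and 1.29 in set 3, which between them hold 3 M4 arrays and 2 M1 arrays. All M4 arrays but replicate 1 were above every M1 array, and M1 replicate 3, in set 3, was above M4 replicate 1, in set 2.

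M5 exceeded M1 by 1.71 ± 0.43 (SE) without the block (adjusted p = 0.111; 0.617% of probe sets called) and by 2.32 ± 0.16 with it (5-fold; adjusted p = 2.65e-05; 1.37% called). The 3 M5 arrays lay above the 3 M1 arrays, and the share of all probe sets where this holds is not given. Without the block the adjusted p of this difference fell to 0.0458 or 0.0414 when M4 replicate 1 or M1 replicate 3 was left out. It fell to 0.0341 without M5 replicate 1, although the difference was then 1.69 with a larger SE of 0.485. In this comparison that fit called 3746 of 22215 probe sets. The fit kept only M5 arrays from an array set that holds no other group, so line and array set could not be told apart. M5 and M4 differed by -0.08 ± 0.43 (SE) without the block, with a 95% interval from -1.01 to 0.85 (adjusted p = 0.953; 1.25% of probe sets called), and their arrays overlapped. With the block M5 was higher by 1.01 ± 0.17 (adjusted p = 0.0177; 1.59% called), a value that rests on M5 replicate 1 and on the arrays of set 2, where the difference was 1.00.

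The other 9 genes spanned far less than ALDH1A1, from 0.30 log2 units for ALDH9A1 to 0.95 for ALDH1B1 and ALDH3B1. Over all 15 probe sets, the median difference from control in the mean of the lines was -0.01, with 7 positive and 8 negative, beside a median of 0.007 over all probe sets. In that comparison 0.063% of all probe sets were called without the block and 0.428% with it. In M1, 0.0135% were called without the block and 0.239% with it, and in M4 0.009% and 0.108%. No probe set of the 9 other genes was called in M1, M4 or the mean of the lines in either fit. In M5, 1.4% were called without the block and 1.54% with it, and ALDH3A2 was the only 1 of the 9 called, in the first fit alone.

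**Figure D3:**
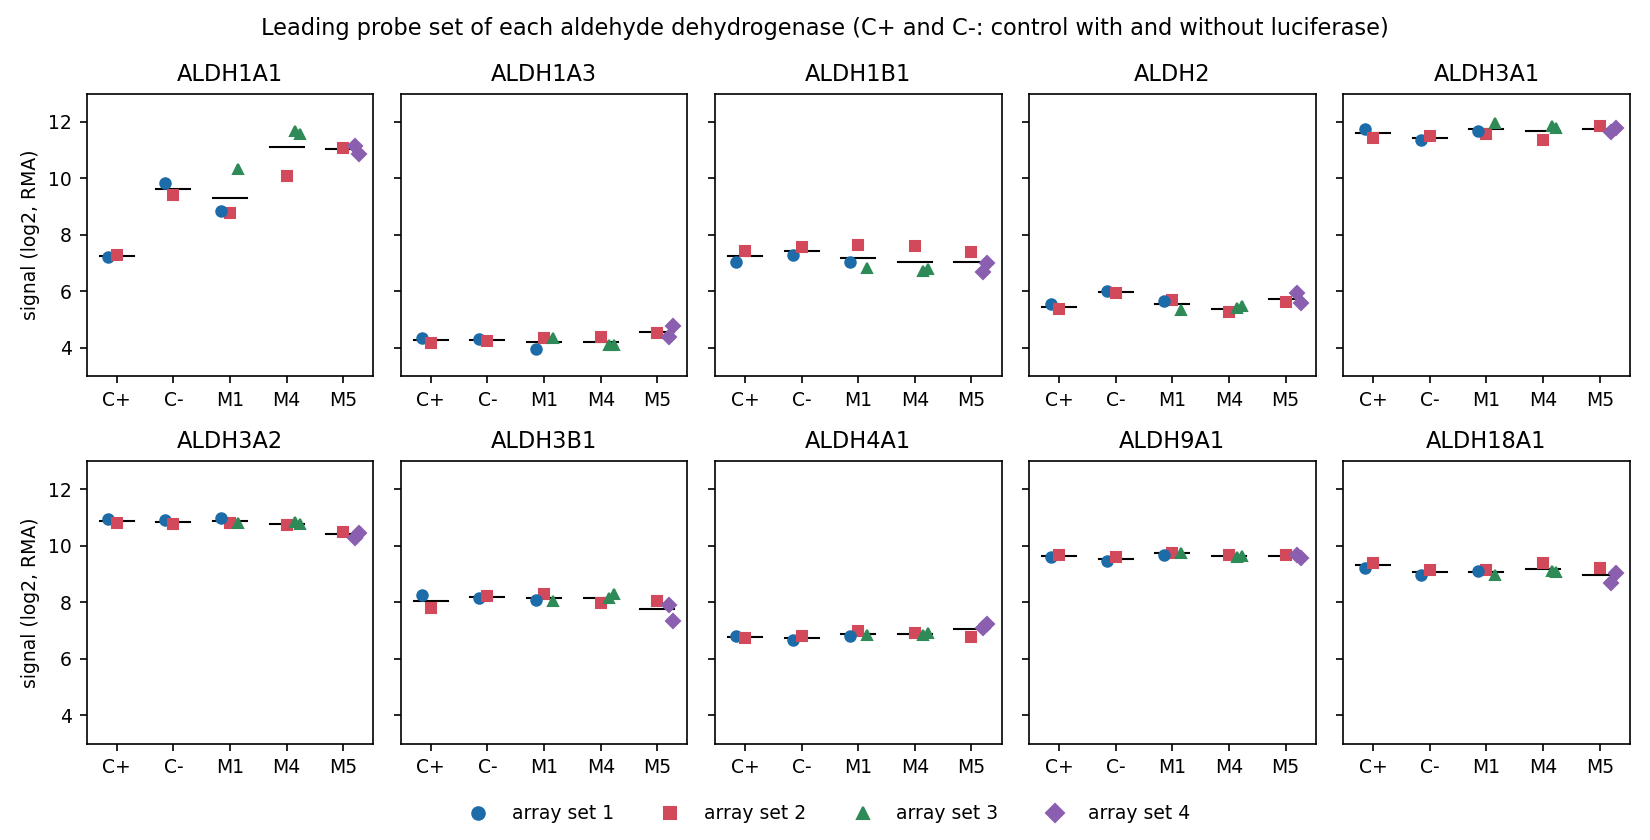
Signal (log2, RMA) of the leading probe set of each of the 10 genes on the 13 arrays, by group, with group means as lines and array sets as symbols. ALDH1A1 spreads over 4.44 log2 units, whereas the other 9 genes stay within 0.95 each.

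Of the other retinal-oxidising enzymes, ALDH1A3, often the main isoform of carcinoma cells sorted by aldehyde dehydrogenase activity, was below the array median on all 13 arrays. It read 4.33 and 4.26 in the controls without luciferase, 4.35 and 4.18 with it, and 4.36, 3.95 and 4.35 in M1. M4 read 4.37, 4.11 and 4.12, and M5 read 4.51, 4.38 and 4.76. The M5 arrays were the highest 3, yet the difference from control (0.27 ± 0.13, SE) did not pass the test (limma adjusted p = 0.327) and was 0.18 ± 0.20 with the block. ALDH1A3 showed no difference between the 2 controls beyond its error (-0.03 ± 0.17, SE).

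ALDH1B1, a mitochondrial enzyme that also oxidises acetaldehyde, was above the array median on every array and followed the array sets more than the groups. The sets accounted for 89.5% of its sum of squares and the groups for 18.6%. Its signal was 7.39 to 7.63 on the 5 arrays of set 2 and 6.71 to 6.84 on the 3 arrays of set 3. In M4 it differed from control by -0.31 ± 0.25 (SE) without the block and by -0.01 ± 0.13 with it, and neither value passed the test. Its second probe set correlated with the first at r = 0.34 over the 13 arrays. That probe set differed in the mean of the lines by -0.17 ± 0.11 without the block and by 0.04 ± 0.09 with it, and was called in no comparison.

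ALDH2, the mitochondrial enzyme of alcohol breakdown, had the largest difference between the 2 kinds of control after ALDH1A1. Controls without luciferase read 6.0 and 5.95, and controls with it read 5.56 and 5.36, with no overlap. The leading probe sets of ALDH9A1 and ALDH18A1 did not overlap between the controls either, ALDH9A1 only narrowly (9.46 and 9.61 against 9.62 and 9.66). With 2 arrays of each kind such a separation is easily reached, and its share over all probe sets is not given. The ALDH2 difference of -0.52 ± 0.16 (SE) had an unadjusted p of 0.00755 and an adjusted p of 1 in limma, and 0.618 with the block. The lines read 5.69, 5.66 and 5.35 in M1, 5.26, 5.42 and 5.50 in M4, and 5.64, 5.95 and 5.58 in M5. No line array exceeded both controls without luciferase, and M4 had the lowest mean (5.39 ± 0.12, SD, n = 3). M4 differed from the mean of the controls by -0.32 ± 0.12 (SE; adjusted p = 0.676) and M5 by 0.01 ± 0.12.

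ALDH3A1, a cytosolic enzyme of aromatic and medium-chain aldehydes known from cornea and from lung carcinoma, was above the upper quartile of every array. It read 11.36 and 11.50 in the controls without luciferase and 11.74 and 11.43 in those with it. M1 read 11.55, 11.68 and 11.97, M4 read 11.37, 11.85 and 11.77, and M5 read 11.84, 11.64 and 11.79. Line arrays above all controls numbered 5 of 9, and the difference of the mean of the lines (0.21 ± 0.11, SE) did not pass the test (adjusted p = 0.731). In M5 it was 0.25 ± 0.14 without the block and 0.39 ± 0.14 with it (adjusted p = 0.227).

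ALDH3A2, the fatty aldehyde dehydrogenase of the endoplasmic reticulum whose loss causes Sjögren-Larsson syndrome, was lower in M5. It was called there without the block, but most fits that left out 1 array lost this call (limma adjusted p = 0.0504 to 0.179). Its leading probe set read 10.50, 10.27 and 10.44 in M5 and 10.73 to 10.97 on the other 10 arrays. The share of all probe sets with such a separation of M5 is not given, here or for other genes. The array sets accounted for 83% of its sum of squares and the groups for 86.7%, and set 4 holds only M5 replicates 2 and 3. The fall from control was 1.37-fold (log2 -0.46 ± 0.09, SE; limma adjusted p = 0.0381). With the array-set block it was -0.29 ± 0.12 and was not called (adjusted p = 0.285), and in array set 2 alone the M5 array was -0.28 and -0.31 from the controls without and with luciferase. Its 2 other probe sets gave -0.20 ± 0.09 and -0.15 ± 0.14, in the same direction and not called. Against M1 and M4, M5 differed by -0.46 ± 0.10 (adjusted p = 0.0664) and -0.38 ± 0.10 (adjusted p = 0.107). M1 and M4 were within 0.08 of the control mean.

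ALDH3B1, which oxidises lipid-derived aldehydes at membranes, had 2 probe sets that did not follow each other (r = 0.11 over 13 arrays). The leading probe set differed from control in M5 by -0.35 ± 0.16 (SE; adjusted p = 0.307), with M5 replicate 3 lowest at 7.35. The other probe set differed by 0.16 ± 0.18 in M5 and by 0.41 ± 0.18 in M4 (adjusted p = 0.787). With the block the leading probe set differed by -0.03 ± 0.22 in M5. The direction for this gene therefore depended on the probe set and the fit.

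The enzymes of proline metabolism did not pass the test in any comparison of the 2 fits. ALDH4A1, which completes the breakdown of proline to glutamate in mitochondria, read 6.66 to 6.82 in the 4 controls and 6.79, 7.09 and 7.25 in M5. Of the 9 line arrays 7 were above all controls, yet the M5 difference was 0.28 ± 0.11 (SE; adjusted p = 0.24) and was -0.00 ± 0.12 with the block. The M5 arrays of set 4 were high and the M5 array of set 2 was not. Without the latter the difference was 0.41 (limma adjusted p = 0.0118), in a fit that called 4947 of 22215 probe sets. That fit kept only the M5 arrays of set 4, so line and array set could not be told apart. The second ALDH4A1 probe set (r = 0.32 with the leading one) was above the array median on none of the 13 arrays. It differed in M5 by 0.12 ± 0.15 without the block and by -0.20 ± 0.17 with it. ALDH18A1, which makes the same intermediate from glutamate on the way to proline, read 8.96 and 9.16 in controls without luciferase and 9.23 and 9.38 with it. Its lines ranged from 8.68 to 9.39 and overlapped both controls.

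ALDH9A1, which oxidises trimethylaminobutyraldehyde for carnitine, was the steadiest member. Its signal stayed between 9.46 and 9.76 on all arrays, and it differed from control by 0.15 ± 0.08 (SE) in M1, by 0.05 ± 0.08 in M4 and by 0.06 ± 0.08 in M5. Its span ranked 11502 of 11963 genes. The 95% interval of its difference in the mean of the lines ran from -0.06 to 0.23.

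**Figure D4:**
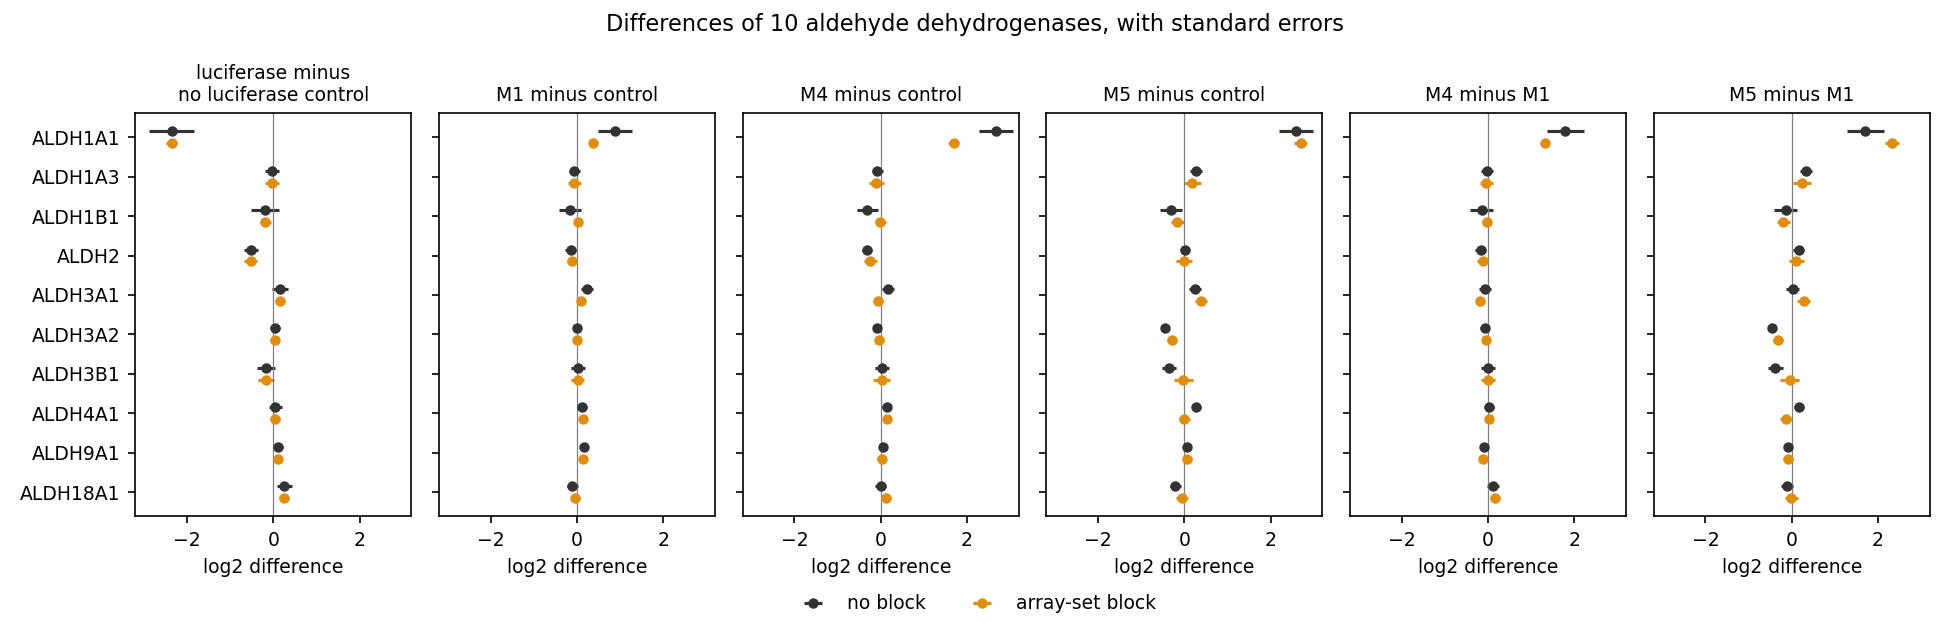
Log2 differences of the leading probe sets of the 10 genes in 6 comparisons, with standard errors as bars, without (dark) and with (orange) the array-set block. ALDH1A1 lies at -2.36 for luciferase and to the right of 0 in every line, while the other genes lie between -0.52 (ALDH2 for luciferase) and 0.39 (ALDH3A1 in M5 with the block).

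The platform names 7 further genes of the family on 17 probe sets, and none of the 17 was called in any control comparison without the block. ALDH5A1, which oxidises succinate semialdehyde in the breakdown of GABA, was above all controls on 8 of 9 line arrays. It read 5.21 to 5.37 in the controls, 5.84, 5.31 and 6.14 in M1, 5.81, 6.08 and 5.93 in M4 and 6.15, 5.42 and 5.47 in M5. The mean of the lines was higher by 0.50 ± 0.16 (SE; limma adjusted p = 0.516), and by 0.45 ± 0.09 with the block (adjusted p = 0.0863). In M5 the difference was 0.39 ± 0.20 without the block (adjusted p = 0.358), and with it the leading probe set rose by 0.72 ± 0.15 (adjusted p = 0.0396), a value that rests on M5 replicate 1, the highest of the 13 arrays. The second ALDH5A1 probe set did not follow the leading one (r = 0.00) and differed in M5 by 0.39 ± 0.10 (adjusted p = 0.0989) and by 0.22 ± 0.13 with the block, where it was not called. In array set 2 the M5 array was 0.80 above the controls by the leading probe set and 0.15 by the second. ALDH7A1, of lysine breakdown, and ALDH6A1, of valine breakdown, differed in the mean of the lines by 0.12 ± 0.17 and 0.11 ± 0.14. Apart from those of ALDH5A1, the probe sets of these further genes differed there by -0.08 to 0.13 without the block. ALDH1L1 of folate metabolism, the retinal enzymes ALDH1A2 and ALDH8A1, and ALDH3B2 were below the array median on every array.

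The remaining steps of retinoid metabolism were read from lists chosen with earlier results of these data known. Of 4 measured retinol and retinal oxidoreductases, 1 rose in M5 with the block and 0 were called without it, beside 1.54% and 1.4% of all probe sets. That gene was DHRS3, an enzyme that returns retinal to retinol and is itself induced by retinoic acid. It read 5.50 to 5.80 in the controls, 5.37, 5.31 and 5.97 in M1, 5.74, 7.18 and 7.33 in M4 and 6.69, 7.17 and 6.81 in M5. All M5 arrays and the M4 arrays of set 3 were above every control and M1 array, while M4 replicate 1 was among the controls. The M5 rise was 1.11 ± 0.23 (SE) with the block (adjusted p = 0.0418), and the difference without it was 1.23 ± 0.31 (adjusted p = 0.0839). Against M1 it rose by 1.56 ± 0.24 with the block (adjusted p = 0.0157). RDH11, a retinal reductase of the same list, differed in the mean of the lines by 0.29 ± 0.10 (adjusted p = 0.574).

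No gene of retinoid uptake and binding (5 measured), retinoic acid breakdown (2) or its receptors (6) was called in M5 or in the mean of the lines in either fit. STRA6, the cell-surface retinol receptor, differed in the mean of the lines by 0.54 ± 0.17 (SE; adjusted p = 0.501), and RXRA by 0.32 ± 0.09 (adjusted p = 0.388). CYP26A1, which breaks down retinoic acid and responds to it, was above the array median on 1 array. Its means were 4.79 in control, 4.79 for M1, 4.85 for M4 and 5.33 for M5. In M5 it differed from control by 0.54 ± 0.20 (SE, limma adjusted p = 0.213) without the block. With the block the difference was 0.04 ± 0.15 (limma adjusted p = 0.955). Of 5 retinoic acid target genes 1 fell in M5 without the block, and 0 were called with it, beside 1.4% and 1.54% of all probe sets. That gene was TGM2, a transglutaminase, by -1.57 ± 0.28 (SE; adjusted p = 0.0215), with -1.06 ± 0.34 under the block (adjusted p = 0.165). Its signal was 6.82 to 7.22 in M5 and 8.15 to 9.50 on all other arrays. Without the block, the median difference in M5 was 0.01 for uptake and binding and 0.33 for the 2 breakdown genes. It was 0.06 for receptors and 0.06 for targets, beside 0.028 over all probe sets. With the block the breakdown genes differed by 0.04 ± 0.15 (CYP26A1) and 0.09 ± 0.14 (CYP26B1). Among the targets, RARRES1 was below the lower quartile on all 13 arrays, and RARRES2 and PLAAT4 were above the median on none.

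Of 10 other measured enzymes that clear reactive aldehydes, 1 rose, 1 fell and 8 did not pass in M5 without the block, and 1 rose with it, beside 1.4% and 1.54% of all probe sets called. Their median difference without the block was -0.01, beside 0.028 over all probe sets. GSTA4, a glutathione transferase for the lipid aldehyde 4-hydroxynonenal, rose by 1.08 ± 0.14 (SE; adjusted p = 0.00368) and by 1.15 ± 0.17 with the block (adjusted p = 0.00798). It read 6.84 to 7.04 in the controls and 8.18, 7.93 and 7.85 in M5. AKR1C3, an aldo-keto reductase of prostaglandins and steroids, fell by 0.60 on the log2 scale in M5 (SE 0.11, adjusted p = 0.0203), and differed by -0.43 ± 0.11 with the block (adjusted p = 0.0844). None of 6 alcohol dehydrogenases, which act before the aldehyde dehydrogenases on alcohols, was called in M5 or the mean of the lines in either fit. ADH5 was the only 1 above the array median on all arrays, with a difference of 0.09 ± 0.08 in the mean of the lines.

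Genes around the proline enzymes and ALDH9A1 showed few calls. Of 8 genes of proline and ornithine metabolism 0 were called in M5 without the block and 2 rose with it, beside 1.4% and 1.54% of all probe sets. The rises were 0.55 ± 0.12 for GLUD1 (SE; adjusted p = 0.049) and 0.62 ± 0.13 for ARG2 (adjusted p = 0.0462). GLUD1 makes 2-oxoglutarate from glutamate, and its difference without the block was -0.25 ± 0.24, so the 2 fits disagree in sign. Its M5 array of set 2 read 9.02 and those of set 4 read 7.94 and 8.03. ARG2, an arginase that yields ornithine, differed by 0.12 ± 0.24 without the block (adjusted p = 0.827). Its M5 array of set 2 read 5.58, above all controls, and those of set 4 read 5.18 and 5.31, within the control range of 4.87 to 5.54. None of 12 genes of amine oxidation and carnitine synthesis was called in M5 or the mean of the lines, and SMOX, a spermine oxidase, had the largest difference in the latter (0.53 ± 0.18; adjusted p = 0.543).

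ALDH1A1 is often listed with stem-cell markers of carcinomas, and 10 others of that list were measured. Without the block 1 fell in M5 and 9 did not pass, and with it 1 rose and 1 fell, beside 1.4% and 1.54% of all probe sets called. ALCAM, an adhesion molecule, fell by 0.90 on the log2 scale in M5 (SE 0.12, adjusted p = 0.00543) and by 0.64 with the block (adjusted p = 0.0418). ABCG2, an efflux pump, rose in the mean of the lines with the block by 0.95 ± 0.10 (adjusted p = 0.00109), and the difference without it was 0.86 ± 0.14 (adjusted p = 0.0569). PROM1, SOX2, NANOG, KIT and LGR5 were below the array median on all 13 arrays. CD44 and CD24 were above it on all arrays and differed by -0.19 ± 0.15 and -0.11 ± 0.10 in the mean of the lines.

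The genes most like ALDH1A1 were read over the 13 arrays from 1559 genes with a span of at least 1 log2 unit. These correlations describe 13 arrays that share cells, groups and array sets. The highest Pearson r were 0.855 for ST3GAL5, a ganglioside synthase, 0.836 for the tetraspanin TSPAN8, 0.812 for the prostaglandin E synthase PTGES, 0.812 for DHRS3 and 0.786 for the receptor ADGRG2. The lowest were -0.812 for the Wnt inhibitor DKK1, -0.796 for the collagen chaperone SERPINH1 and -0.791 for AHNAK2. After the mean of each array set had been removed, the highest 5 were DBR1 (0.898), GULP1 (0.889), MEF2C (0.865), ADGRG2 (0.857) and PLA2G12A (0.853), so ADGRG2 alone was in both lists. DHRS3 then had 0.59. The lowest were HNMT (-0.835), MAPRE3 (-0.833) and FEZ1 (-0.823).

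ADGRG2 shared the gap between the controls, with 6.12 and 5.63 without luciferase and 5.13 and 4.77 with it. It was picked for its likeness to ALDH1A1 on these same arrays, so the shared gap is not a separate result. Its M1 arrays read 5.11, 6.09 and 6.78, its M4 arrays 6.31, 6.42 and 6.54, and its M5 arrays 6.85, 5.78 and 5.84. DHRS3 did not share this gap, with 5.66 and 5.68 without luciferase and 5.80 and 5.50 with it. Among the other members the correlation with ALDH1A1 ran from -0.53 for ALDH3A2 to 0.43 for ALDH3A1, and ALDH3A2 had -0.62 after the set means were removed.

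**Figure D5:**
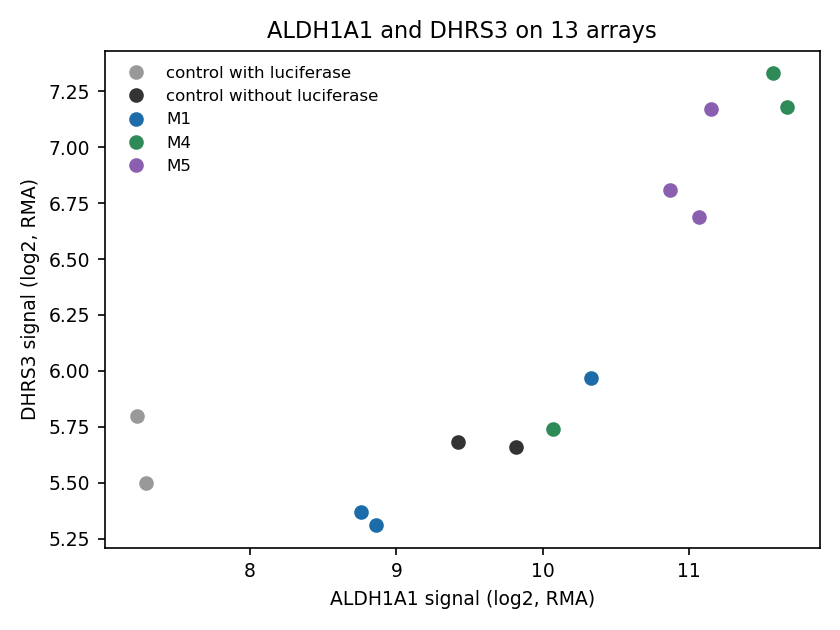
DHRS3 signal against ALDH1A1 signal (both log2, RMA), 1 point per array and coloured by group. Both kinds of control lie between 5.50 and 5.80 for DHRS3 although ALDH1A1 runs from 7.23 to 9.82 among them, and the M5 arrays and M4 replicates 2 and 3 are high for both genes.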

How the data were processed

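The deposited values are log2 signals of 22277 Affymetrix probe sets on 13 arrays, which the authors made with RMA per the submitters' processing notes; its version and settings are not given. The 62 control probe sets were left out, and 22215 were tested. Of these 19064 name 1 gene, 1043 several (none of them with a member) and 2108 none. The probe set with the highest mean led for its gene.

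Differences were fitted with limma 3.58.1 in R 4.3.3 as 5 group means over all 13 arrays (lmFit, eBayes) with calls at an adjusted p under 0.05 (Benjamini-Hochberg, over all 22215). Both kinds of control weighed equally. Errors of signals are SDs and errors of differences are limma's SE; folds are powers of 2. The second fit added the array set, from Ward clustering of the 62 control probe sets, as a block. On simulated data the fit without the block found 90% of 200 changes of 2-fold in the mean of the lines, and 3.74% of 187 calls were false. The simulated noise was independent between arrays and held no array sets, so these rates need not hold for the real data.

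The genes and lists were chosen with earlier results of these data known. The text gives the leading probe set of each of the 10 genes and of the other ALDH genes first, and the remaining probe sets more briefly or as a range. Of each list, called genes were named (at most 4), and otherwise the 2 with the largest difference in the mean of the lines; other genes named were chosen after their values were seen. Likeness to ALDH1A1 used Pearson's r, for the highest 5 and lowest 3 genes.

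Replicate numbers did not pair the arrays: deviations of same-numbered arrays of other groups correlated with a median r of -0.07 (from -0.52 to 0.54), and those of the same array set with 0.38. Alternatives were a replicate block, 1 probe set per gene, no dim probe sets, quantile normalization, median centring, an intensity trend with robust prior, only the arrays compared, either control alone, a random block for the line, and fits without each array in turn. Within-set values, and either control with the array-set block, were added after seeing the data. Promoter sequences came from RefSeq (GRCh38.p14).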

Additional observations from a re-analysis of the deposited data

Results flagged for a closer look

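The leading probe set of ALDH3B1 read 7.35 on M5 replicate 3, lower than the other line arrays by more than Dixon's 95% critical value allows. It was the only array marked in 20 groups of values examined, where chance marks about 1 in 20. The second probe set of the gene read 7.92 on that array, within its own range of 7.52 to 8.35.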

How the results depend on the processing

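A direction was read only from values at least 1 SE from 0. By that reading, of 1768 values of the 10 genes under the alternatives, 1723 had no reversal and stayed on their side of the threshold, 11 gained and 16 lost a call, 15 moved and 3 reversed. In all 79 changed sign, of which 76 had at least 1 of the compared values within 1 SE of 0, among them ALDH1A1 in M1 against the control without luciferase (-0.30). The 3 reversals were with the array-set block: ALDH4A1 in M5 minus M1 (-0.13) and M5 minus M4 (-0.15), and ALDH1A1 in M1 against the control without luciferase (-0.80). The block with that control gave 0.41, 0.51 and 1.52 for ALDH1A1 in the mean of the lines, M4 and M5, and with the luciferase control 2.77, 2.87 and 3.88. The ALDH3A2 call in M5 was lost with the replicate block (adjusted p = 0.122), with only the arrays compared (0.218), with either control alone (0.142 and 0.122) and in most fits that left out 1 array (0.0504 to 0.179), with differences from -0.39 to -0.49. The causes were not tested.

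Calls over all probe sets numbered 14 for the mean of the lines, 3 for M1, 2 for M4, 310 for M5, 0 for luciferase, 3 for M4 minus M1, 137 for M5 minus M1 and 278 for M5 minus M4. In this order the array-set block gave 95, 53, 24, 343, 4, 19, 304 and 354. Replicate numbers did not pair the arrays, and the replicate block gave 6, 3, 1, 102, 1, 2, 100 and 160. One probe set per gene, with fewer tests, gave 3 in the mean of the lines and 11 in M4. Without dim probe sets, M4 minus M1 gave 1, and quantile normalization gave 6 in M4. With only the arrays compared, M1 gave 8, M4 15, M5 18, M4 minus M1 0 (837 at an unadjusted p under 0.05 in limma), M5 minus M1 10 and M5 minus M4 33. The control without luciferase alone gave 1 for M1, 1 for M4 and 66 for M5, and the luciferase control alone 4 in M4 and 59 in M5. The trend with robust prior gave 24, 6 and 19 in the mean of the lines, M1 and M4, and the line as a random block gave 1 in the mean of the lines.

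Leaving out each array gave 6 to 404 in the mean of the lines, 0 to 17 in M1, 1 to 22 in M4, 54 to 4947 in M5, 1 to 7 for M4 minus M1, 30 to 3746 for M5 minus M1 and 70 to 3654 for M5 minus M4. The highest of each came without M5 replicate 1, the M5 array of set 2.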
